A study of Mus musculus with 6 samples.

Results

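The genes described here are 32 genes of macrophages and other myeloid cells, measured in whole mouse ovaries that lack or carry galactose-1-phosphate uridylyltransferase. They were chosen by name, as known genes of the lineage, its growth factor, its receptors and its lysosomal and uptake machinery. The choice was made with earlier results of these data known. All 32 matched 1 Ensembl gene each among the 55487 genes of the count table. Of the 32, 31 passed the filter on low counts and were tested among 16957 genes. The macrophage gene Vsig4, a complement receptor, did not pass and is given as counts only.

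The ovaries came from GalTKO mice, with the genotype GalT-/-, and from wildtype mice, 3 libraries of each. All 6 samples carry the same mixed strain label (cbl/6-ola/129) and were taken at postnatal day 49, and mice of both genotypes, once weaned, were kept for 4 weeks on a 2.5% galactose diet. No sample without the galactose diet enters the comparison. The labels give neither litter nor estrous stage and do not say whether 1 library is 1 animal, so the p-values rest on a spread between samples that may be technical.

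Macrophages are the most common leukocytes of the ovary. They arise from embryonic precursors and from blood monocytes, depend on signals through the receptor CSF1R, and take up dying granulosa cells, degenerating follicles and regressing corpora lutea. The transcription factor PU.1, encoded by Spi1, is needed for the lineage and binds purine-rich DNA at many myeloid genes. Fc receptors on these cells bind antibody-coated particles and pass the signal on through adaptor proteins, while scavenger receptors take up modified lipoproteins, haemoglobin and dead cells.

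Read totals lay between 19232486 and 25729564 counts per library, and a count of 0 in a library allows a level of up to between 0.116 and 0.156 CPM (counts per 1000000 of the TMM-scaled library, counting error only). Galt itself had 0.155, 0.259 and 0 CPM in GalTKO replicates 1 to 3, against 17.8, 16.1 and 17.4 CPM in wildtype replicates 1 to 3, in keeping with the labels. The oocyte gene Gdf9, at 52.3 to 59.2 CPM in GalTKO and 46.6 to 65.1 CPM in wildtype libraries, and the granulosa gene Foxl2, at 249 to 287 CPM in GalTKO and 301 to 357 CPM in wildtype libraries, were present throughout, as ovary requires. Mitochondrially encoded genes held 2.22% to 3.53% of counts in GalTKO and 1.37% to 1.97% in wildtype libraries, ranges that did not overlap. The part of that difference in the results on myeloid genes was not tested.

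Most of the 31 tested myeloid genes were measured at a lower level in GalTKO ovaries. At a Benjamini-Hochberg adjusted p under 0.05 in the edgeR quasi-likelihood test, 10 of the 31 tested genes fell, namely Csf1r, Laptm5, Cd53, Lyz2, Mpeg1, Ctss, Fcgr2b, Cd163, Siglec1 and Cd5l, 0 rose and 21 did not pass, against 1.43% of all tested genes that fell and 1.13% that rose. No member rose by DESeq2 or limma voom either. The log2 fold change of GalTKO over wildtype was negative for 29 of the 31, with a median of -0.64, where 46.6% of all tested genes were negative and their median was 0.02. Before adjustment, p was under 0.05 for 23 of the 31, against 17.1% of all tested genes, and all 23 were negative. Every GalTKO library lay below every wildtype library for 21 of the 31, against 12.0% of all tested genes, and in no case did every GalTKO library lie above. In whole tissue, fewer cells of a type and less RNA per cell cannot be told apart.

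Of the 31, Cd5l passed the filter on low counts through the wildtype libraries alone and so had to differ in that direction, and Cd163 was over the filter level in 2 of 3 GalTKO and all 3 wildtype libraries. The other 29 genes were above the filter level of 0.422 CPM in all 6 libraries, and 8 of them fell and 27 had a negative log2 fold change. The sum over the 32 genes was 464, 467 and 415 CPM in GalTKO replicates 1 to 3, against 756, 800.1 and 687 CPM in wildtype replicates 1 to 3. Scaled to the wildtype mean of each gene, the median myeloid gene stood at 0.692, 0.612 and 0.612 in GalTKO replicates 1 to 3, and at 0.991, 1.06 and 0.926 in wildtype replicates 1 to 3. Wildtype replicate 3 held the lowest wildtype value for 18 of the 31 genes and wildtype replicate 2 the highest for 18, while GalTKO replicate 3 held the lowest GalTKO value for 14.

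**Figure D1:**
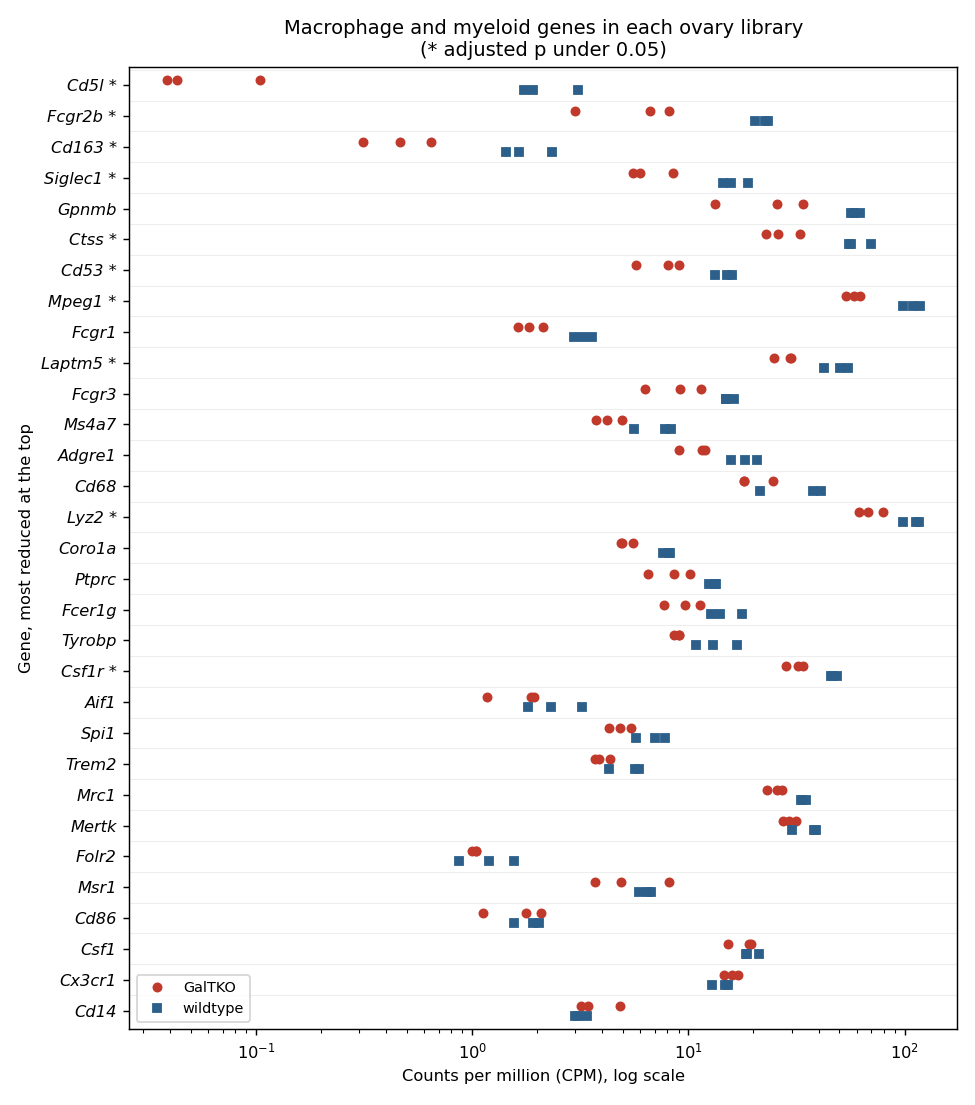
Level of each of the 31 tested myeloid genes in every library, in CPM on a log axis, with GalTKO libraries as red circles and wildtype libraries as blue squares. Genes run from the largest negative log2 fold change at the top to the positive ones at the bottom, and an asterisk marks the 10 genes past the threshold; Cd5l stands apart at the top, while Cx3cr1 and Cd14 at the bottom overlap between genotypes.

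The number of members past the threshold depended on the library set aside, and came to 7, 13 and 7 without GalTKO replicates 1, 2 and 3, where 0.725%, 2.43% and 0.949% of all tested genes fell, and 4, 3 and 6 without wildtype replicates 1, 2 and 3, where 0.63%, 0.492% and 0.68% fell. Mpeg1, Ctss and Cd5l passed in all 6 of these fits. Other choices gave 19 members lower by DESeq2 (3.24% of all genes it tested), which added Ptprc, Coro1a, Adgre1, Fcgr3, Fcer1g, Tyrobp, Mrc1, Ms4a7 and Gpnmb to the 10, 13 by limma voom (1.78%), 15 without the filter on low counts (1.64%), 11 with median-of-ratios scaling (1.42%), 10 with upper-quartile scaling (1.21%) and 10 with a filter of at least 1 CPM in 3 libraries (1.46%).

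Csf1r encodes the receptor for the growth factors CSF1 and IL-34, on which macrophage survival depends (ENSMUSG00000024621; GRCm38 chromosome 18, 61100598 to 61132149, plus strand). It reached 32.1, 28.2 and 33.9 CPM in GalTKO replicates 1 to 3, against 45.5, 48.6 and 46.6 CPM in wildtype replicates 1 to 3. The libraries of each genotype lay close together and the genotypes did not overlap, and Csf1r fell to a fold of 0.669 (log2 fold change -0.58 ± 0.10, SE of 3 libraries a genotype; edgeR adjusted p = 0.0233). The call was lost without GalTKO replicate 1 or wildtype replicate 1, 2 or 3 (adjusted p up to 0.112). An exonic stretch of 873 bases, 15.1% of the exonic length of Csf1r, overlaps Hmgxb3 on the opposite strand. Hmgxb3 had 7799 counts in all 6 libraries together, against 5498 for Csf1r. The sources used here do not give the strand setting of the counting, so the Csf1r value is uncertain to that extent.

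Spi1 had 5.42, 4.31 and 4.84 CPM in GalTKO replicates 1 to 3, against 6.997, 7.82 and 5.72 CPM in wildtype replicates 1 to 3. The lowest wildtype library lay just above the highest GalTKO library, and the log2 fold change of -0.49 ± 0.19 did not pass (edgeR adjusted p = 0.235). Csf1, the ligand, which is made mostly by cells other than macrophages, had 19.5, 19.2 and 15.2 CPM in GalTKO replicates 1 to 3, against 18.5, 18.7 and 21.2 CPM in wildtype replicates 1 to 3. Its groups overlapped, with a log2 fold change of -0.12 ± 0.13 and a 95% interval of -0.41 to 0.18. The other ligand of the receptor, Il34, stood at 0.02 ± 0.31 and also overlapped between genotypes, at 6.30 to 14.6 CPM in GalTKO and 8.10 to 10.3 CPM in wildtype libraries.

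The promoters of the members were read for the purine-rich letters that PU.1 is known to bind. RefSeq promoters on GRCm38.p6, from 250 bases before to 50 after the start of the gene, were found for 24 of the 32 members. The letters GAGGAA, on either strand, were in the promoter of 13 of the 24 (54.2%), against 31.3% of all 27025 genes in the table. The longer AGGAAGT was in 7 of the 24 (29.2%), against 10.7% of all genes. Both motifs share the letters AGGAA and can overlap, and a gene with more than 1 listed promoter counted once. Of the 8 members that fell and had a promoter, 4 held GAGGAA and 3 held AGGAAGT, and of the other 16 with a promoter, 9 and 4 held them. These 16 include Vsig4, which was not tested and held GAGGAA. The promoters of 5 genes that fell are shown, since they span the cases found: both motifs (Ctss and Cd53), 1 of them (Lyz2 and Cd5l) and neither (Mpeg1). Capitals mark the motifs, read on either strand, and each sequence runs 5′ to 3′ on the strand of the gene.

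Ctss, chr3:95526536-95526835, plus strand: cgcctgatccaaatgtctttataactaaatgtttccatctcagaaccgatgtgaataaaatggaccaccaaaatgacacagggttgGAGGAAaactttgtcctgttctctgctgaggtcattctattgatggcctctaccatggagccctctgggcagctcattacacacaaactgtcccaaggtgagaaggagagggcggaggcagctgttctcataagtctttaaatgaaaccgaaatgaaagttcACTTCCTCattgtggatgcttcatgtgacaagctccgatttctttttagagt
Cd53, chr3:106790100-106790399, minus strand: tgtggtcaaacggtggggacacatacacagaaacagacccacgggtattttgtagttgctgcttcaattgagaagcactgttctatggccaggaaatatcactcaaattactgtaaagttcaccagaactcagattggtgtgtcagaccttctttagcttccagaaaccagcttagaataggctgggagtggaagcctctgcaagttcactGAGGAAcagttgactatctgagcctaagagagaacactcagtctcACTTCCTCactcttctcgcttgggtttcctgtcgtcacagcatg
Lyz2, chr10:117282223-117282522, minus strand: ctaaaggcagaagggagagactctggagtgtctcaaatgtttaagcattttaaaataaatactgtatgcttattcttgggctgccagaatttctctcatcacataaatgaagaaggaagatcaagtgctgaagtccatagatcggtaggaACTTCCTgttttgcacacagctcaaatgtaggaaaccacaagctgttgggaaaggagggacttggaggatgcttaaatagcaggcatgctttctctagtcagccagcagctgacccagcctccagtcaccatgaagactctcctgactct
Cd5l, chr3:87357631-87357930, plus strand: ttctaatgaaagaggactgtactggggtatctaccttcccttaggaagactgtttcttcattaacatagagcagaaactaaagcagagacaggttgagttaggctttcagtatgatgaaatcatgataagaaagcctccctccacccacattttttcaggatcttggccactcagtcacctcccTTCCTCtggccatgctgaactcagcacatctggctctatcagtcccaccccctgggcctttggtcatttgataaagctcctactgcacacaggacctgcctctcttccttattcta
Mpeg1, chr19:12460520-12460819, plus strand: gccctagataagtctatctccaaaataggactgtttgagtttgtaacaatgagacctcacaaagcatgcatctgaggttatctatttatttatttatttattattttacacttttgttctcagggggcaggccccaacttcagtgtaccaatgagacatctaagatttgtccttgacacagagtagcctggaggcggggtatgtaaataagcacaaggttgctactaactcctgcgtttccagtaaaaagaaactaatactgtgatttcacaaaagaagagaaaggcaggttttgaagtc

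In Ctss and Cd53 the 2 motifs overlap on the opposite strand as a single run of capitals near the start of the gene. Mpeg1, which passed with any library left out, held neither in this window.

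Genes found in all leukocytes came next, and all 4 had every GalTKO library below every wildtype library, as had 12.0% of all tested genes. Laptm5, a lysosomal membrane protein of blood cells (ENSMUSG00000028581; GRCm38 chromosome 4, 130913125 to 130936141, plus strand), reached 29.7, 29.5 and 24.9 CPM in GalTKO replicates 1 to 3, against 50.2, 54.6 and 42.3 CPM in wildtype replicates 1 to 3. It fell by 0.80 on the log2 scale (SE 0.12; edgeR adjusted p = 0.0154), a call lost without wildtype replicate 1 or 2 (adjusted p up to 0.0788). Cd53, a tetraspanin of the leukocyte surface (ENSMUSG00000040747; GRCm38 chromosome 3, 106759921 to 106790149, minus strand), had 9.02, 8.02 and 5.73 CPM in GalTKO replicates 1 to 3, against 15.1, 15.9 and 13.3 CPM in wildtype replicates 1 to 3. GalTKO replicate 3 was the lowest library and the change was -0.95 ± 0.18 (log2, SE; edgeR adjusted p = 0.0381), a call lost without GalTKO replicate 3 or wildtype replicate 1, 2 or 3 (adjusted p up to 0.146). Ptprc, the phosphatase known as CD45, had 10.1, 6.47 and 8.59 CPM in GalTKO replicates 1 to 3, against 13.5, 12.4 and 13.2 CPM in wildtype replicates 1 to 3, and GalTKO replicate 2 was the lowest. Its log2 fold change of -0.63 ± 0.18 did not pass (edgeR adjusted p = 0.12), nor did that of the actin regulator Coro1a, -0.64 ± 0.15 (adjusted p = 0.0727), whose libraries ran at 4.89 to 5.53 CPM in GalTKO and 7.62 to 8.204 CPM in wildtype libraries.

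Among the 7 genes of the macrophage surface, lysosome and cytosol, 3 fell and 4 did not pass, where 1.43% of all tested genes fell. Mpeg1, the pore-forming protein perforin-2 of phagocytes (ENSMUSG00000046805; GRCm38 chromosome 19, 12460779 to 12465283, plus strand), reached 62.4, 58.6 and 53.8 CPM in GalTKO replicates 1 to 3, against 109.9, 118 and 98.3 CPM in wildtype replicates 1 to 3. The 3 GalTKO values lay close together and well below the lowest wildtype value. Its log2 fold change of -0.90 ± 0.10 had an edgeR adjusted p of 0.00307, and of at most 0.0237 when any library was left out. Ctss, cathepsin S, the lysosomal protease that trims the invariant chain of MHC class II (ENSMUSG00000038642; GRCm38 chromosome 3, 95526786 to 95556403, plus strand), had 25.9, 32.9 and 22.7 CPM in GalTKO replicates 1 to 3, against 55.1, 70.2 and 56.6 CPM in wildtype replicates 1 to 3. Its fold was 0.449 and its log2 fold change -1.16 ± 0.16 (edgeR adjusted p = 0.00866, at most 0.0436 with any library left out).

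Lyz2, the lysozyme of macrophages (ENSMUSG00000069516; GRCm38 chromosome 10, 117277331 to 117282321, minus strand), was the member with the highest level per kb of exonic length, 53.0 ± 6.95 in GalTKO and 82.9 ± 7.13 in wildtype ovaries (CPM per kb, mean ± SD, n = 3). Its CPM values were 61.6, 79.6 and 67.9 in GalTKO replicates 1 to 3, against 113, 116 and 98.5 in wildtype replicates 1 to 3. Lyz2 fell by 0.65 on the log2 scale (SE 0.11; edgeR adjusted p = 0.0282), a call lost without GalTKO replicate 1 or 3 or wildtype replicate 1 or 2 (adjusted p up to 0.122). Its close relative Lyz1 shares 195 of the 1267 distinct stretches of 50 bases in the Lyz2 transcripts (15.4%) but had 8 counts in the GalTKO and 17 in the wildtype libraries. The sources used here do not give how reads matching both were counted.

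Adgre1 encodes F4/80, the classical surface marker of mouse macrophages. It had 11.6, 11.9 and 9.06 CPM in GalTKO replicates 1 to 3, against 20.8, 18.4 and 15.7 CPM in wildtype replicates 1 to 3. The genotypes did not overlap, yet the log2 fold change of -0.75 ± 0.16 lay just outside the threshold (edgeR adjusted p = 0.0505), and it passed without GalTKO replicate 2 (log2 fold change -0.82; adjusted p = 0.0404). Cd68, a lysosomal glycoprotein, had 24.6, 18.2 and 18.1 CPM in GalTKO replicates 1 to 3, against 41.1, 37.7 and 21.4 CPM in wildtype replicates 1 to 3. Wildtype replicate 3 lay inside the GalTKO range, and the log2 fold change was -0.72 ± 0.25 (adjusted p = 0.218), against -0.96 without that library (adjusted p = 0.0468). Aif1, the cytosolic protein IBA1, was low and overlapped between genotypes, at 1.165 to 1.94 CPM in GalTKO and 1.82 to 3.21 CPM in wildtype libraries (log2 fold change -0.56 ± 0.32).

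Cx3cr1, the fractalkine receptor of monocytes and of some resident macrophages, had a positive log2 fold change, as did Cd14 alone among the other members tested. It had 14.6, 17.0 and 15.9 CPM in GalTKO replicates 1 to 3, against 12.9, 15.3 and 14.8 CPM in wildtype replicates 1 to 3. The groups overlapped and the log2 fold change was 0.15 ± 0.12, with a 95% interval of -0.14 to 0.43 that lies above the median of the tested myeloid genes. Its ligand Cx3cl1 stood at 0.19 ± 0.25 and did not pass either (edgeR adjusted p = 0.764).

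**Figure D2:**
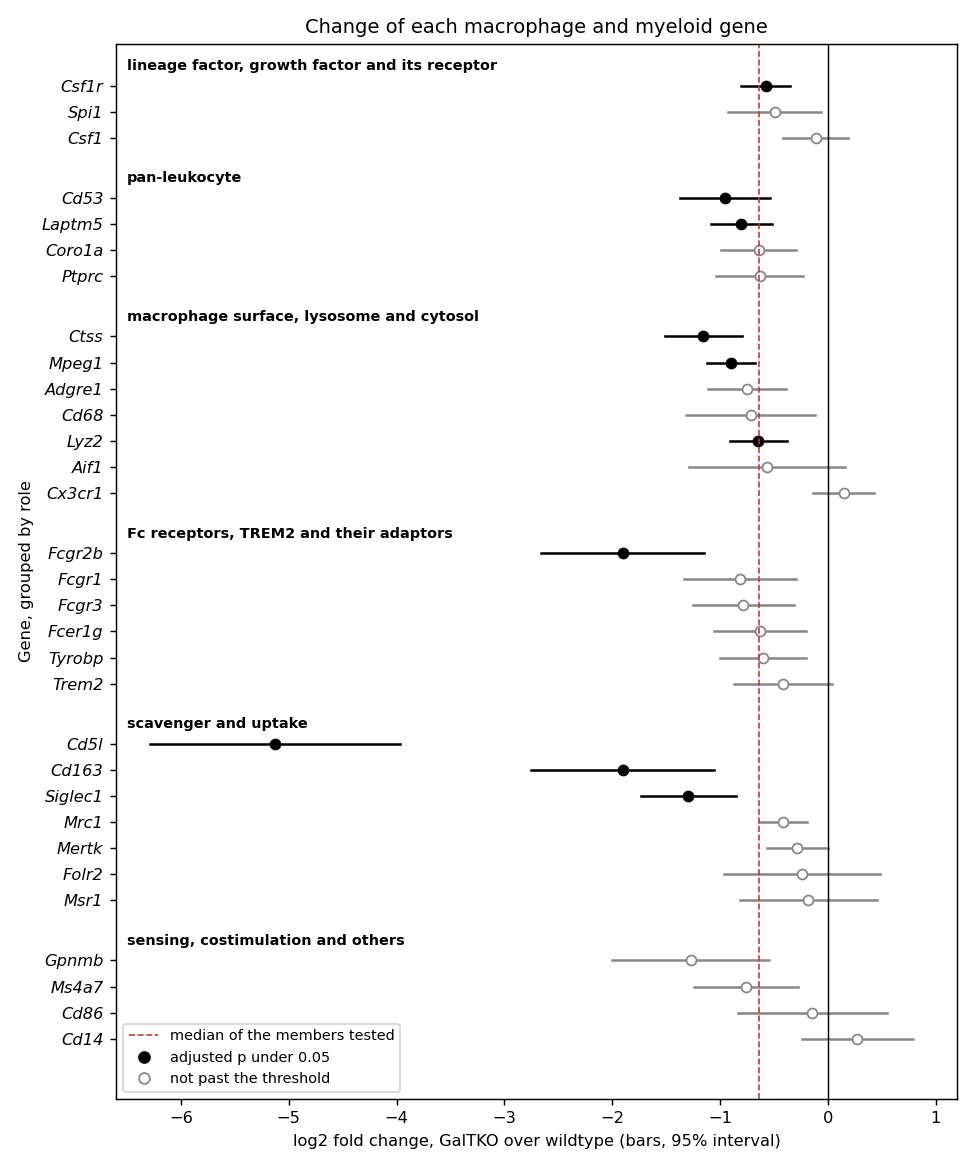
The log2 fold change of GalTKO over wildtype with its 95% interval for the 31 tested genes, grouped by role, with filled circles for the 10 genes past the threshold and open circles for the other 21; the dashed line is the median of -0.64. Most intervals lie to the left of 0, and Cd5l lies far to the left of all others. The intervals of Cx3cr1, Cd14, Csf1, Aif1, Trem2, Msr1, Folr2 and Cd86 include 0.

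All 6 genes of the Fc receptor and adaptor group had negative values, and 1 fell. The shares over all tested genes were 46.6% and 1.43%. Fcgr2b encodes the inhibitory receptor for IgG of macrophages and B cells (ENSMUSG00000026656; GRCm38 chromosome 1, 170958617 to 170976547, minus strand). It reached 8.09, 2.98 and 6.61 CPM in GalTKO replicates 1 to 3, against 20.2, 23.5 and 22.5 CPM in wildtype replicates 1 to 3. The wildtype libraries differed little among themselves, while GalTKO replicate 2 held less than the other GalTKO libraries, and the fold was 0.267 (log2 fold change -1.90 ± 0.32, SE of 3 libraries a genotype; edgeR adjusted p = 0.0314). This call was lost without GalTKO replicate 3 or wildtype replicate 1, 2 or 3 (adjusted p up to 0.113) and when low genes were kept in the test (adjusted p = 0.0817).

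Fcgr3, the activating low-affinity receptor whose gene lies on the same chromosome at 171051174 to 171064935, had 11.4, 6.30 and 9.11 CPM in GalTKO replicates 1 to 3, against 14.95, 16.2 and 14.99 CPM in wildtype replicates 1 to 3. GalTKO replicate 2 was again the lowest, and the log2 fold change of -0.78 ± 0.20 did not pass (edgeR adjusted p = 0.101). The Fcgr3 transcripts share 166 of their 1733 distinct stretches of 50 bases with Fcgr2b (9.58%), and the sharing takes up 2.92% of Fcgr2b, so the split of reads between both genes is uncertain. Fcgr4, which lies between them at 171018920 to 171029761 and shares no such stretch with another gene, had 1.51, 0.906 and 1.197 CPM in GalTKO replicates 1 to 3, against 2.08, 1.99 and 2.95 CPM in wildtype replicates 1 to 3, and did not pass (log2 fold change -0.95 ± 0.30; adjusted p = 0.162). The high-affinity receptor gene Fcgr1, on chromosome 3, stood at -0.82 ± 0.23 (edgeR adjusted p = 0.119).

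The adaptors that carry the activating signal, Fcer1g and Tyrobp, did not pass in edgeR (adjusted p = 0.139 and 0.127) and passed by DESeq2 (adjusted p = 0.0457 and 0.0428). Fcer1g, the common gamma chain of Fc receptors, had 11.3, 9.66 and 7.70 CPM in GalTKO replicates 1 to 3, against 14.1, 17.8 and 12.7 CPM in wildtype replicates 1 to 3, and a log2 fold change of -0.63 ± 0.19. Tyrobp, the adaptor DAP12, had 9.06, 8.58 and 9.06 CPM in GalTKO replicates 1 to 3, against 12.95, 16.7 and 10.9 CPM in wildtype replicates 1 to 3, with -0.60 ± 0.17. In both, no GalTKO library reached the lowest wildtype library. Trem2, a lipid-sensing receptor that signals through DAP12, overlapped between genotypes and stood at -0.42 ± 0.20 (edgeR adjusted p = 0.332).

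Of the 7 tested scavenger and uptake genes, 3 fell and 4 did not pass, where 1.43% of all tested genes fell. Cd5l encodes a secreted scavenger protein of tissue macrophages, also called AIM (ENSMUSG00000015854; GRCm38 chromosome 3, 87357881 to 87371073, plus strand). It had 1, 1 and 2 counts in GalTKO replicates 1 to 3, against 48, 73 and 40 counts in wildtype replicates 1 to 3. That is 0.0620 ± 0.0365 CPM in GalTKO and 2.25 ± 0.734 CPM in wildtype ovaries (mean ± SD, n = 3), and each GalTKO library lay below the level that 3 counts stand for. The wildtype to GalTKO ratio of scaled counts was 38.3 (exact 95% interval 14.7 to 142.2, counting error only), and the fitted log2 fold change was -5.13 ± 0.51 (SE; edgeR adjusted p = 0.0016), a size that at such counts depends on the prior count of the fit. Its 95% interval, -6.29 to -3.97, lies below the lower end of the interval of every other tested member.

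Cd163, the receptor for haemoglobin bound to haptoglobin (ENSMUSG00000008845; GRCm38 chromosome 6, 124304656 to 124330527, plus strand), was a low gene with 0.464, 0.647 and 0.312 CPM in GalTKO replicates 1 to 3, against 1.44, 1.65 and 2.34 CPM in wildtype replicates 1 to 3. The genotypes did not overlap and the log2 fold change was -1.90 ± 0.37 (edgeR adjusted p = 0.0408), a call lost without GalTKO replicate 1 or 3 or wildtype replicate 1, 2 or 3 (adjusted p up to 0.148). Siglec1, the sialic acid receptor CD169 of resident macrophages (ENSMUSG00000027322; GRCm38 chromosome 2, 131069220 to 131086765, minus strand), had 5.96, 8.46 and 5.57 CPM in GalTKO replicates 1 to 3, against 14.5, 15.8 and 18.8 CPM in wildtype replicates 1 to 3. The highest GalTKO library, replicate 2, was far below the lowest wildtype one, and Siglec1 fell to a fold of 0.407 (log2 fold change -1.29 ± 0.19; edgeR adjusted p = 0.0134), a call lost without wildtype replicate 2 or 3 (adjusted p up to 0.0596).

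Mrc1, the mannose receptor CD206, had 25.8, 27.0 and 23.2 CPM in GalTKO replicates 1 to 3, against 33.5, 33.3 and 34.9 CPM in wildtype replicates 1 to 3. The groups did not overlap, but the log2 fold change was -0.42 ± 0.10 (edgeR adjusted p = 0.0681), and it passed without GalTKO replicate 2 (log2 fold change -0.47; adjusted p = 0.0419). Mertk, a receptor for the uptake of dying cells, had 27.2, 29.2 and 31.4 CPM in GalTKO replicates 1 to 3, against 38.0, 39.0 and 30.0 CPM in wildtype replicates 1 to 3, overlapping between genotypes. Its log2 fold change was -0.29 ± 0.12 (edgeR adjusted p = 0.286). Msr1, the class A scavenger receptor, stood at -0.18 ± 0.28, or 0.04 without GalTKO replicate 3, and the folate receptor gene Folr2 at -0.24 ± 0.32, both overlapping between genotypes. Folr2 had 157 counts in all 6 libraries together, and 63.1% of its exonic length overlaps the antisense gene Gm10602, which had 471 counts, so its value is uncertain. Vsig4 had 0, 4 and 0 counts in GalTKO replicates 1 to 3 and 3, 0 and 0 counts in wildtype replicates 1 to 3, too few for a fold.

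Of the last 4 genes 0 passed with all libraries in edgeR, although the unadjusted p of Gpnmb and of Ms4a7 was under 0.05; DESeq2 called both of these and limma voom called Gpnmb. Gpnmb, a transmembrane glycoprotein of lipid-laden phagocytes, had 25.7, 34.0 and 13.3 CPM in GalTKO replicates 1 to 3, against 62.1, 58.5 and 56.4 CPM in wildtype replicates 1 to 3. Its wildtype libraries lay close together and its GalTKO libraries were spread widely below them, giving a log2 fold change of -1.27 ± 0.31 (edgeR adjusted p = 0.102). Gpnmb passed without GalTKO replicate 2 (log2 fold change -1.59; adjusted p = 0.0344) and again without GalTKO replicate 3 (log2 fold change -0.98; adjusted p = 0.0175). Ms4a7, a tetraspan protein of macrophages, stood at -0.76 ± 0.21 without overlap (adjusted p = 0.12). Cd14, the co-receptor for bacterial lipopolysaccharide, had 4.80, 3.19 and 3.44 CPM in GalTKO replicates 1 to 3, against 3.40, 3.003 and 3.08 CPM in wildtype replicates 1 to 3. It overlapped and stood at 0.27 ± 0.23, with a 95% interval of -0.24 to 0.79. The costimulatory gene Cd86 also overlapped and stood at -0.14 ± 0.30, or 0.07 without GalTKO replicate 2.

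Length-scaled levels set the members in order within the tissue. After Lyz2, the highest in wildtype ovaries were Ctss, at 20.0 ± 3.84 in GalTKO and 44.6 ± 6.12 in wildtype ovaries, Cd68, at 16.1 ± 2.96 in GalTKO and 26.6 ± 8.40 in wildtype ovaries, and Mpeg1, at 13.4 ± 0.995 in GalTKO and 25.1 ± 2.25 in wildtype ovaries (CPM per kb of exonic length, mean ± SD, n = 3). In wildtype ovaries Cd68 and Mpeg1 did not differ beyond their spread. Csf1r stood at 5.44 ± 0.503 in GalTKO and 8.12 ± 0.274 in wildtype ovaries. Gpnmb, Fcgr3, Cd53, Mertk and Csf1r, which follow each other in the wildtype order, each differed from the next by less than the larger SD of the pair, and Adgre1, at 3.35 ± 0.484 in GalTKO and 5.64 ± 0.789 in wildtype ovaries, came below them. The lowest tested member in wildtype was Cd163, at 0.0869 ± 0.0307 in GalTKO and 0.331 ± 0.0862 in wildtype ovaries, and in GalTKO it was Cd5l, at 0.0304 ± 0.0180 in GalTKO and 1.10 ± 0.361 in wildtype ovaries. Exonic length is the union of all annotated exons, which can overstate the length of genes with many alternative transcripts such as Ptprc.

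**Figure D3:**
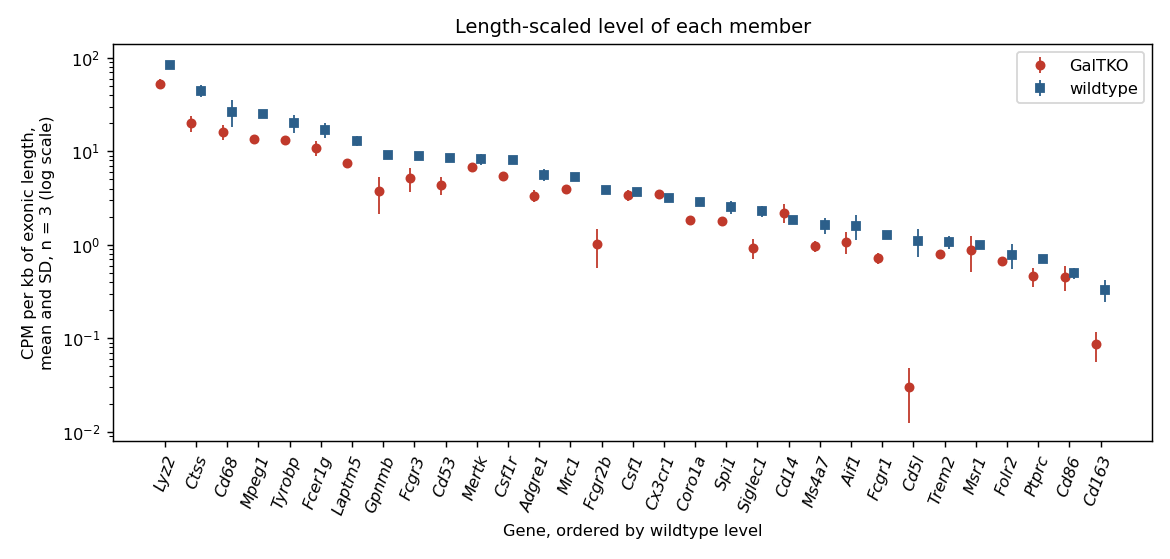
Mean and SD (n = 3) of the level of each tested member in CPM per kb of exonic length on a log axis, with GalTKO as red circles and wildtype as blue squares, ordered by the wildtype level. Lyz2 is the highest in both genotypes, and Cd5l, Fcgr2b and Cd163 show the widest gaps between them.

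Ratios within a library do not depend on how libraries are scaled to each other, so each member was also divided by Csf1r. The overlap of Csf1r with Hmgxb3 is a limit of all these ratios. Of 30 such ratios, 7 were lower in every GalTKO library than in every wildtype library and 3 were higher, while 20 overlapped. Over all other tested genes 1.43% were lower and 69.3% higher in this way. Csf1r itself fell, which raises most ratios, so the 3 higher ratios are not set apart from the background and the share of lower ones is reduced. The 7 lower ratios belong to members already called lower, with larger falls than Csf1r, and are not separate evidence. With 3 libraries against 3, the smallest two-sided p of an exact permutation test is 0.1, and no ratio could pass after adjustment over the 30 (smallest adjusted p = 0.3).

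The Cd5l to Csf1r ratio was 0.00120, 0.00153 and 0.00307 in GalTKO replicates 1 to 3, against 0.0422, 0.0635 and 0.0371 in wildtype replicates 1 to 3. For Fcgr2b it was 0.252, 0.105 and 0.195 in GalTKO replicates 1 to 3, against 0.445, 0.483 and 0.483 in wildtype replicates 1 to 3, with no overlap and a narrow wildtype range. Siglec1 gave 0.185, 0.300 and 0.164 in GalTKO replicates 1 to 3, against 0.319, 0.325 and 0.404 in wildtype replicates 1 to 3. The other 4 lower ratios were those of Cd163, Ctss, Mpeg1 and Cd53. The higher ones were those of Cx3cr1, 0.455, 0.601 and 0.470 in GalTKO replicates 1 to 3, against 0.284, 0.314 and 0.317 in wildtype replicates 1 to 3, and of Cd14 and Mertk. By contrast the ratio of Tyrobp to Csf1r, 0.282, 0.304 and 0.267 in GalTKO replicates 1 to 3, against 0.285, 0.344 and 0.233 in wildtype replicates 1 to 3, overlapped, as did those of Spi1, Ptprc, Coro1a, Lyz2, Fcer1g and 14 others.

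**Figure D4:**
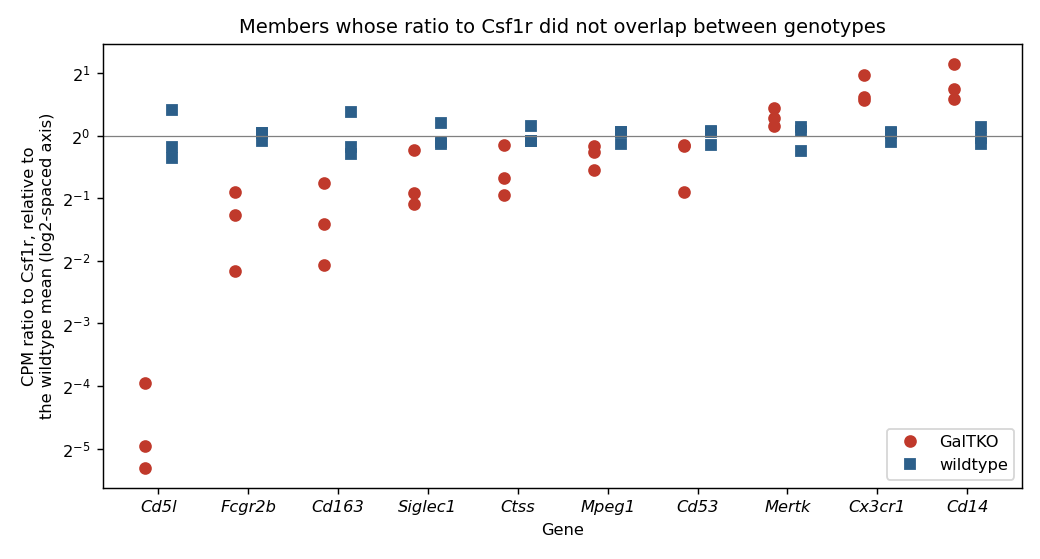
CPM ratio of each gene to Csf1r in the same library, divided by the wildtype mean of that ratio and drawn on a log axis, for the 10 members whose ratio did not overlap between genotypes; GalTKO libraries are red circles and wildtype libraries blue squares. The 7 genes at the left lie below the wildtype libraries and Mertk, Cx3cr1 and Cd14 at the right lie above them.

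Further genes of the lineage were read from named lists. Over all tested genes, 1.43% fell and 1.13% rose in edgeR, and 17.1% had an unadjusted edgeR p under 0.05. In either direction DESeq2 called 5.41% and limma voom 3.29% of the genes they tested. Of the 13 macrophage transcription factors, 0 passed in edgeR, 1 passed by DESeq2 and 0 by limma voom. The unadjusted edgeR p was under 0.05 for Irf8, Ikzf1 and Tfec. Of the 13, 8 were negative and 5 positive, where 46.6% of all tested genes were negative, and the median was -0.12. Irf8, which works together with PU.1, had 11.2, 12.6 and 9.94 CPM in GalTKO replicates 1 to 3, against 15.2, 19.1 and 17.0 CPM in wildtype replicates 1 to 3. Its groups did not overlap, with a log2 fold change of -0.60 ± 0.14 (edgeR adjusted p = 0.0732), and it passed without GalTKO replicate 2 (log2 fold change -0.69; adjusted p = 0.0405). Ikzf1 stood at -0.61 ± 0.23 and Tfec, a low gene that entered the test through the wildtype libraries alone, at -0.98 ± 0.42. The gene that passed by DESeq2 was Irf8 (adjusted p = 0.0119).

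Of 9 tested monocyte-attracting ligands and receptors, 1 fell and 8 did not pass, while 3 were negative and 6 positive (median 0.08). Among all tested genes 1.43% fell and 46.6% were negative. Ccr2, the receptor that draws monocytes out of the blood, had 4.76, 3.97 and 4.37 CPM in GalTKO replicates 1 to 3, against 8.92, 9.22 and 12.7 CPM in wildtype replicates 1 to 3. The genotypes did not overlap, and the log2 fold change was -1.23 ± 0.19 (edgeR adjusted p = 0.0158), a call lost without wildtype replicate 2 or 3 (adjusted p up to 0.0539). Its ligand Ccl2 was low, at 0.833 to 2.13 CPM in GalTKO and 0.780 to 1.61 CPM in wildtype libraries.

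Of 9 genes of the phagocyte oxidase and the leukocyte integrins, 2 fell and all 9 were negative (median -0.60). The shares over all tested genes were 1.43% and 46.6%. Cybb, the catalytic subunit gp91phox of the NADPH oxidase, had 11.9, 11.2 and 13.01 CPM in GalTKO replicates 1 to 3, against 25.8, 22.3 and 22.5 CPM in wildtype replicates 1 to 3. It fell by 0.97 on the log2 scale (SE 0.12; edgeR adjusted p = 0.0052) and passed with any library left out. Itgb2, the common beta chain of the leukocyte integrins, stood at -0.84 ± 0.17 (adjusted p = 0.047), a call lost without GalTKO replicate 1, 2 or 3 or wildtype replicate 1 or 2 (adjusted p up to 0.172). Itgax did not pass in edgeR, at -1.09 ± 0.33, but passed by DESeq2 (adjusted p = 0.0314), and Itgam, at -0.40 ± 0.30, passed by neither.

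Of 12 tested genes of ITAM and ITIM signalling, the kinases, phosphatases and adaptors behind the Fc receptors, 0 passed in edgeR (4 by unadjusted p, 1 by DESeq2, 0 by limma voom), while 11 of 12 were negative (median -0.45). Over all tested genes 17.1% had an unadjusted edgeR p under 0.05, 46.6% were negative and 1.43% fell. The smallest p values were those of Inpp5d (-0.54 ± 0.13), Lyn (-0.44 ± 0.13) and Lcp2 (-0.57 ± 0.17). Of the 3 C1q subunits, which macrophages make, C1qb fell (-0.65 ± 0.12; edgeR adjusted p = 0.0301), a call lost without GalTKO replicate 1 or 3 or wildtype replicate 1 or 2 (adjusted p up to 0.117), and C1qa (-0.53 ± 0.17) and C1qc (-0.54 ± 0.13) did not pass in edgeR with all libraries. C1qc passed in edgeR without wildtype replicate 3 (adjusted p = 0.0293) and, with all libraries, by DESeq2 (adjusted p = 0.0113) and limma voom (adjusted p = 0.0489).

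The perivascular and resident macrophage list had 8 of 12 genes tested and 0 past the threshold in edgeR, against 4 by unadjusted p, 0 by DESeq2 and 2 by limma voom (median -0.51). Over all tested genes, 17.1% had an unadjusted edgeR p under 0.05 and limma voom called 3.29%. Fcna, a ficolin of macrophages, had 0.194, 0.216 and 0.156 CPM in GalTKO replicates 1 to 3, against 0.800, 0.719 and 0.606 CPM in wildtype replicates 1 to 3. Its log2 fold change of -1.87 ± 0.40 did not pass (edgeR adjusted p = 0.0527), and it entered the test through the wildtype libraries alone. Stab1, a scavenger receptor shared with sinusoidal endothelium, stood at -0.45 ± 0.14 and passed without GalTKO replicate 2 (log2 fold change -0.64; adjusted p = 0.00569). F13a1 stood at -0.95 ± 0.32 and passed without GalTKO replicate 2 (log2 fold change -1.43; adjusted p = 0.0173), and Lyve1, shared with lymphatic endothelium, stood at -0.57 ± 0.20.

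Markers of other cells of the ovary were read beside the myeloid genes. Over all tested genes, 46.6% were negative, 17.1% had an unadjusted edgeR p under 0.05 and 1.43% fell in edgeR. In either direction DESeq2 called 5.41% and limma voom 3.29% of the genes they tested. Of 8 endothelial markers all 8 were negative (median -0.39), 6 had an unadjusted p under 0.05, DESeq2 called 4 and limma voom 3. In edgeR 2 fell, Kdr (-0.68 ± 0.09; edgeR adjusted p = 0.00769) and Pecam1 (-0.60 ± 0.12; adjusted p = 0.0441), the second lost without GalTKO replicate 1, 2 or 3 or wildtype replicate 2 or 3 (adjusted p up to 0.142). Vwf and Cldn5 passed only without GalTKO replicate 2 (edgeR adjusted p = 0.0156 and 0.0389). The summed endothelial level was 434, 491 and 455 CPM in GalTKO replicates 1 to 3, against 550.5, 632 and 681 CPM in wildtype replicates 1 to 3. Its genotypes did not overlap, and the ratio of GalTKO to wildtype means of the summed level was 0.740 for endothelial, 0.622 for luteal and 0.600 for the myeloid genes. Of 8 luteal markers 7 were negative, with a median of -0.81 that lies below that of the myeloid genes, 5 had an unadjusted p under 0.05, DESeq2 called 4 and limma voom 2. In edgeR 1 luteal marker fell, Star (-1.13 ± 0.19; adjusted p = 0.0263), lost without GalTKO replicate 1 or wildtype replicate 1, 2 or 3 (adjusted p up to 0.0906). Scarb1 passed only without GalTKO replicate 2 or 3 (edgeR adjusted p = 0.0344 and 0.0406). The summed luteal level was 9543, 9301 and 14990.0 CPM in GalTKO replicates 1 to 3, against 15702, 16695 and 21993 CPM in wildtype replicates 1 to 3, the lowest wildtype library lying close to GalTKO replicate 3.

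Markers of other leukocytes were scarce. Over all tested genes, 1.43% fell in edgeR and 17.1% had an unadjusted edgeR p under 0.05. The T and NK cell list had 7 of 12 genes tested and 0 past the threshold in edgeR (1 by DESeq2, 0 by limma voom). The unadjusted p was under 0.05 for Cd4 (-1.02 ± 0.31), which macrophages can also express, and Thy1 (-0.39 ± 0.13), and the list had a summed level of 28.4, 30.8 and 24.5 CPM in GalTKO replicates 1 to 3, against 36.4, 37.2 and 38.1 CPM in wildtype replicates 1 to 3. Thy1 passed only without GalTKO replicate 2 (edgeR adjusted p = 0.036). Of 7 tested B and plasma cell genes 1 fell, Cd22 (-1.50 ± 0.31; edgeR adjusted p = 0.0473), lost without GalTKO replicate 1 or 3 or wildtype replicate 1, 2 or 3 (adjusted p up to 0.179), while Cd79a and Ms4a1 had 0.0863 to 1.08 CPM in all 6 libraries without an order between genotypes. Neutrophil markers were nearly absent: Ly6g and Ngp had 0 counts in all 6 libraries, and only Csf3r of the 9 genes passed the filter (-0.37 ± 0.24). The summed neutrophil level was 3.41, 3.32 and 2.19 CPM in GalTKO replicates 1 to 3, against 3.60, 4.31 and 4.24 CPM in wildtype replicates 1 to 3. No mast cell marker of 6 passed the filter, Fcer1a had 0 counts throughout, and the summed level was 0.348, 0.173 and 0.937 CPM in GalTKO replicates 1 to 3, against 1.28, 4.10 and 1.39 CPM in wildtype replicates 1 to 3. Red blood cell genes, 2 of 5 tested, summed to 2.01, 3.84 and 2.29 CPM in GalTKO replicates 1 to 3, against 2.96, 5.88 and 6.71 CPM in wildtype replicates 1 to 3. Alas2, of that list, passed only without GalTKO replicate 2 (edgeR adjusted p = 0.0242).

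Of 6 tested dendritic cell genes 1 fell. Over all tested genes, 1.43% fell and 1.13% rose in edgeR, 17.1% had an unadjusted edgeR p under 0.05 and 46.6% were negative. Flt3, the growth factor receptor of dendritic cell precursors, had 0.348, 0.431 and 0.416 CPM in GalTKO replicates 1 to 3, against 0.960, 1.35 and 1.78 CPM in wildtype replicates 1 to 3, and a log2 fold change of -1.76 ± 0.37 (edgeR adjusted p = 0.0478), lost without GalTKO replicate 1, 2 or 3 or wildtype replicate 1, 2 or 3 (adjusted p up to 0.175). Xcr1 (-1.94 ± 0.56) and Cd209a (-1.88 ± 0.42) did not pass in edgeR, and DESeq2 called all 3 of these genes and limma voom 0. Flt3 and Xcr1 were over the filter level in 1 GalTKO library each and Cd209a in 0, against all 3 wildtype libraries. Zbtb46, which endothelium also expresses, stood at -0.06 ± 0.10 and made up most of the summed level, which was 33.4, 37.3 and 36.8 CPM in GalTKO replicates 1 to 3, against 38.3, 43.7 and 40.3 CPM in wildtype replicates 1 to 3. Granulosa markers had 1 higher (Amh, 0.76 ± 0.12) and 1 lower (Nr5a2, -0.64 ± 0.13) of 8 in edgeR. Of the 8, 4 had an unadjusted edgeR p under 0.05, 5 were negative and 3 positive, and DESeq2 called 2 and limma voom 2. The Amh call was lost without GalTKO replicate 1 or wildtype replicate 1 or 2 (edgeR adjusted p up to 0.0697). The Nr5a2 call was lost without GalTKO replicate 1 or 3 or wildtype replicate 1, 2 or 3 (edgeR adjusted p up to 0.135). Fshr passed only without GalTKO replicate 2 (log2 fold change 0.73; edgeR adjusted p = 0.0377). Of 8 stromal and 8 oocyte markers 0 passed in edgeR, DESeq2 or limma voom, and by unadjusted p 0 stromal and 1 oocyte gene lay under 0.05; Dcn passed without GalTKO replicate 2 (adjusted p = 0.0217). Summed levels overlapped between genotypes, at 4632 to 5561 CPM in GalTKO and 4579.5 to 5726 CPM in wildtype libraries for granulosa, 3058 to 5768 CPM in GalTKO and 4070.1 to 4420.0 CPM in wildtype libraries for stromal and 222 to 255 CPM in GalTKO and 194 to 297 CPM in wildtype libraries for oocyte genes. The part of these other cells in the change of the myeloid genes was not tested.

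**Figure D5:**
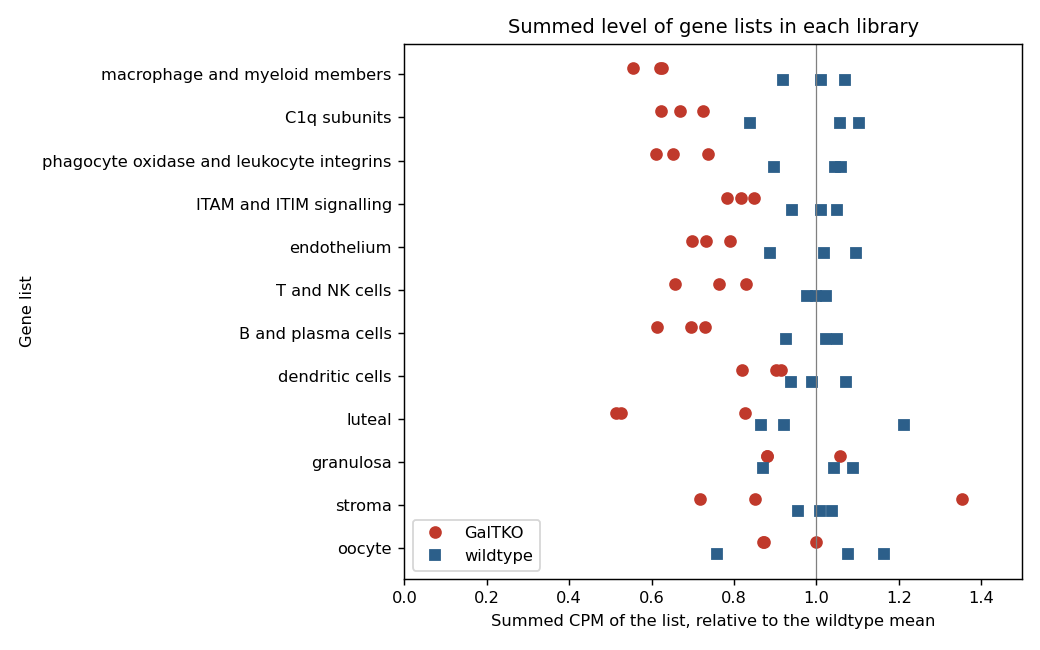
Summed CPM of a chosen part of the gene lists in every library, relative to the wildtype mean of each list. GalTKO libraries are red circles and wildtype libraries blue squares. Lists not shown include macrophage transcription factors, monocyte-attracting ligands and receptors, and perivascular and resident macrophage markers. Their summed levels overlapped between genotypes, with GalTKO to wildtype ratios of means of 1.075, 1.17 and 0.822. GalTKO libraries lie below all wildtype libraries for the 32 myeloid genes, the C1q, oxidase and integrin, ITAM, endothelial and luteal lists and the 3 lists of other leukocytes shown, and overlap with them for granulosa, stromal and oocyte genes.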

How the data were processed

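Total RNA from whole ovaries was sequenced after removal of ribosomal RNA, with a stranded library kit, per the labels' protocols. The values the authors deposited are unnormalized whole-number counts for each Ensembl gene. The submitters' processing notes list GRCm38 and DESeq2 1.30.1, featureCounts 1.6.3, STAR 2.7.6a and cutadapt 1.16; the sources used here give neither their settings nor the annotation release nor the strand setting. Names and coordinates came from GENCODE M21 (55227 of 55487 identifiers matched; the other 260 held 0.00307% of counts). Counts were tested in R 4.3.3 with edgeR 4.0.16: filterByExpr (minimum count 10, minimum total 15), TMM scaling, a robust quasi-likelihood fit with genotype as the only term, and Benjamini-Hochberg adjustment over all genes. SE is the size of the log2 fold change divided by the square root of F, and intervals are at 95%. Alternatives were DESeq2 1.42.0, limma 3.58.1 (voom with quality weights), 2 other scalings, 2 other filters, a replicate block and each library left out. The gene test was tested on simulated data. The chi-square per degree of freedom was at least 12 for every pair of libraries, more than counting error alone gives, and each was treated as 1 replicate. This value cannot show whether the libraries came from different animals. The members, lists and tests were chosen with earlier results of these data known. The genes named are all members, Galt, Fcgr4 and Lyz1 as relatives of members, and from each other list those that passed or, where 0 passed, up to 3 with the smallest p. Il34, Cx3cl1, Ccl2, Itgam, Itgax, C1qa, C1qc, Lyve1, Xcr1, Cd209a, Zbtb46, Foxl2, Gdf9, Cd79a, Ms4a1, Dcn, Ctsd, Spp1, Vwf, Cldn5, Scarb1, Fshr and Alas2 were named after their values were seen. A gene of 1 list is not reported here.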

Additional observations from a re-analysis of the deposited data

How the results depend on the processing

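Of 403 recomputed values of single members, 347 kept their direction and side of the threshold, 25 newly passed, 29 no longer passed and 2 changed sign: Cd86 without GalTKO replicate 2 (a log2 fold change of 0.0722, in a range of -0.331 to 0.0722 over the fits without 1 library) and Msr1 without GalTKO replicate 3 (0.0374, in a range of -0.566 to 0.0374), neither past the threshold. The 10 members lower in GalTKO became 19 with DESeq2 (3.24% of its genes fell), 13 with limma voom, 15 with no filter on low counts, 11 with median-of-ratios and 10 with upper-quartile scaling, and 3 to 13 with a library left out; 0 members were higher in any of these fits. All 10 were also called by DESeq2 and voom. The median log2 fold change of the members stayed within -0.74 to -0.61 over all alternatives. All genes called in either direction, 433, became 1024 with DESeq2, 877 with no filter and 165 to 742 with a library left out. Called genes of the other lists, 13, became 28 with DESeq2, 25 with no filter and 2 to 20 with a library left out. A fit without 1 library has fewer samples; the causes of the other moves were not tested. Same-numbered GalTKO and wildtype libraries did not deviate together (correlations of 0.0888, -0.0395 and 0.0758; 2 of 3 GalTKO libraries correlated best with their own number). With the replicate number as a block, 8 members were lower. Over all tested genes that fit called 321 in either direction, and more of these fell than rose. Csf1r, Fcgr2b and Cd163 were not called in it and Adgre1 was. Counts limit Cd5l, Cd163, Folr2 and Vsig4 most.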

Other observations

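A list of 10 genes of lipid-laden macrophages, most of which other ovarian cells also express, held 1 gene that fell and 1 that rose. Lgals3, galectin-3, had 36.4, 23.7 and 25.6 CPM in GalTKO replicates 1 to 3, against 75.6, 66.1 and 47.9 CPM in wildtype replicates 1 to 3. It fell (log2 fold change -1.14 ± 0.22, SE; edgeR adjusted p = 0.0434), a call lost without GalTKO replicate 2 or 3 or wildtype replicate 1 or 2 (adjusted p up to 0.14). Lpl, lipoprotein lipase, had 131, 111 and 113 CPM in GalTKO replicates 1 to 3, against 81.4, 79.3 and 66.0 CPM in wildtype replicates 1 to 3, and rose (0.65 ± 0.11; edgeR adjusted p = 0.0244), a call lost without GalTKO replicate 1 or wildtype replicate 1, 2 or 3 (adjusted p up to 0.0947). The lysosomal protease gene Ctsd stood at -0.58 ± 0.12 (edgeR adjusted p = 0.0544) and passed without GalTKO replicate 2 (log2 fold change -0.72; adjusted p = 0.00764). Spp1, osteopontin, had 94.6, 63.3 and 3.28 CPM in GalTKO replicates 1 to 3, against 8.72, 13.4 and 9.70 CPM in wildtype replicates 1 to 3. GalTKO replicates 1 and 2 lay far above all others and replicate 3 below the wildtype range, and the gene passed without GalTKO replicate 3 (log2 fold change 2.89; adjusted p = 0.00385).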
